A study of Mus musculus with 10 samples.

Results

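The Iroquois homeobox genes were followed through the 6 lists of ChIP-seq peaks of this series. The members are the 6 mouse genes named Irx1 to Irx6, out of 22350 protein-coding genes of the mm9 annotation, and they lie in 2 clusters of 3 genes each. For each gene, the peaks that touched the gene body or the 10 kb on either side of it were taken from every list, and the start site of the gene (TSS) was scored as inside or outside a peak. J1 ESCs, a mouse embryonic stem cell line grown on feeder cells with serum and LIF and then depleted of feeders, were profiled for Ring1b, Cbx2, Ezh2 and H3K27me3. NSCs, made from J1 ESCs in culture and kept in EGF and FGF, were profiled for Ring1b and H3K27me3. All samples were fixed in 1% formaldehyde, with an added EGS step for Ring1b by the study's methods. Each cell type and target had 1 library, so no difference below has a replicate check and none was tested. The lists give the start and end of each peak without height or score, and the depth behind them is unknown. Where no peak is listed, the signal did not pass the authors' threshold, and binding below it is not excluded. The share of feeder cells left in the ESC samples was not measured here.

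Irx proteins are transcription factors with a homeodomain of the TALE class. They pattern the neural tube, heart, kidney, lung and retina, and Irx3 helps to set borders between progenitor domains of the ventral neural tube. Mammals carry a pair of Irx clusters that arose by duplication, so that Irx1 and Irx3, Irx2 and Irx5, and Irx4 and Irx6 are paralogs that hold matching places. PcG proteins hold such developmental genes in check: Ring1b is the ubiquitin ligase of PRC1, Cbx2 is a chromodomain subunit of PRC1 that binds chromatin and compacts it, and Ezh2 is the methyltransferase of PRC2 that writes H3K27me3.

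The coding sequences reflected the paralogs. Over the length of the shorter sequence, identity was 64.9% for Irx1 and Irx3, 66.1% for Irx2 and Irx5 and 66.7% for Irx4 and Irx6, and each of these values was higher than that of either gene with any other member. When only aligned bases were counted, Irx1 was as close to Irx2 (69.4%) as to Irx3 (69.3%), and Irx6 was as close to Irx3 (68.9%) as to Irx4 (68.9%). The genes are far apart within each cluster. On chromosome 13, Irx1 and Irx2 are separated by 665 kb and Irx2 and Irx4 by 626 kb, and on chromosome 8, Irx3 and Irx5 are separated by 556 kb and Irx5 and Irx6 by 313 kb. Peaks at 1 member therefore do not run into the next.

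The DNA just before the TSS of 4 members is printed because these genes mark the ends of the range described below. Irx2 and Irx5 are the paralogs that had a Ring1b peak in NSCs, and Irx4 and Irx6 are the paralogs that had no Cbx2 peak in ESCs. A stretch of the region between Irx5 and Irx6 that carried the only NSC H3K27me3 peak inside either cluster follows them. This stretch was picked as the 300 bases of the region with the most CpGs (48). The region as a whole held 5.45 CpGs per 100 bp, so the number in the stretch cannot be compared with those upstream of the genes. All are from mm9, written 5′ to 3′ along the plus strand, which is also the strand of these 4 genes, with each CpG in capitals.
Irx2, chr13:72765995-72766244: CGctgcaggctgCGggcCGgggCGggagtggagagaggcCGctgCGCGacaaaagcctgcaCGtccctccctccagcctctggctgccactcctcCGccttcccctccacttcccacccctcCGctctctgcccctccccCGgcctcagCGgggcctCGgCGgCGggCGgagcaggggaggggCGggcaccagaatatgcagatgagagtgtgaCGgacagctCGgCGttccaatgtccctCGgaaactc
Irx5, chr8:94881445-94881694: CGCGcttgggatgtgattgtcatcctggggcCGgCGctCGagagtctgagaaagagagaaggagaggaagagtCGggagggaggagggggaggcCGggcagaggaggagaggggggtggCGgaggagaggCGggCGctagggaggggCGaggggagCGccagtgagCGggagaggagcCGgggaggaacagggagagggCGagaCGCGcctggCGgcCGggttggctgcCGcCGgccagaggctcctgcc
Irx4, chr13:73397695-73397944: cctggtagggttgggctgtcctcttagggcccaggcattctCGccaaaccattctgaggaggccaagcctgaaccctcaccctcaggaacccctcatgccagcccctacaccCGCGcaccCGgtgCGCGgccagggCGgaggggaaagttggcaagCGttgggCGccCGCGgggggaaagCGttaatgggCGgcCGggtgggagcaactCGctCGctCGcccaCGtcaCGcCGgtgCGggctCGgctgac
Irx6, chr8:95197938-95198187: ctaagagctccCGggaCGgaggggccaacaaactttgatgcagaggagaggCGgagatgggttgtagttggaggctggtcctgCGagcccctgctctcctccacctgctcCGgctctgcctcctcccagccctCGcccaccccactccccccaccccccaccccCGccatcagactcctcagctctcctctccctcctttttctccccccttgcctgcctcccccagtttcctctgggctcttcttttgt
Between Irx5 and Irx6, chr8:94984204-94984503: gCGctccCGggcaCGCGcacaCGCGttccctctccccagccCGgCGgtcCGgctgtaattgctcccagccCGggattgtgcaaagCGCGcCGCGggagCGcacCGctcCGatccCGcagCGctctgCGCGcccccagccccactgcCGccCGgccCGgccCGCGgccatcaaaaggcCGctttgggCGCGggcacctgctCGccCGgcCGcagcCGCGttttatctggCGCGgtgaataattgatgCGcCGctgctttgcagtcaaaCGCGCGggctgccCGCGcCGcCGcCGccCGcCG
The 250 bases before the TSS held 21 CpGs at Irx2, 21 at Irx5 and 22 at Irx4, but only 7 at Irx6. Irx1 had 23 and Irx3 had 13. The median was 8 over all protein-coding genes and 18 over those with their TSS in an ESC Ring1b peak, so Irx3 and Irx6 lay below the latter median and Irx6 below both.

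In ESCs, Ring1b peaks held the TSS of all 6 Irx genes. Over all protein-coding genes the share was 7.03%, and 11.5% had an ESC Ring1b peak somewhere within the gene body plus 10 kb. The peak at Irx2, a gene active in lung and neural development, was the widest of the 6 at 17800 bp (chr13:72760401-72778200), and only 1.28% of the 2335 ESC Ring1b peaks were at least as wide. It began 5844 bp before the TSS, took in all 6 exon blocks and ended 11955 bp after the TSS, well past the end of the 5400 bp gene.
Irx5, which shapes the gradient of repolarization across the ventricular wall of the heart, lay in a peak of 10800 bp (chr8:94879801-94890600). Irx3 lay in a peak of 10600 bp (chr8:94321201-94331800), and Irx1 in a peak of 8200 bp (chr13:72094201-72102400). All exon blocks of these genes were under Ring1b as well. The peaks at Irx1, Irx2 and Irx5 reached farther in the direction of transcription than against it, whereas the peak at Irx3 reached 6247 bp upstream and 4352 bp downstream of its TSS.
Irx4, a gene of the ventricular myocardium, had a peak of 6400 bp over its TSS and 3 of 6 exon blocks (chr13:73397001-73403400), and a separate peak of 1200 bp beyond its 3′ end. The peak at Irx6, a gene of retinal bipolar cells, was the narrowest at 2600 bp (chr8:95197001-95199600) and took in 1 of 6 exon blocks. The median width was 2600 bp over all genes whose TSS lay in an ESC Ring1b peak, so Irx6 had a peak of the usual width and the other 5 genes had wider ones.

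**Figure D1:**
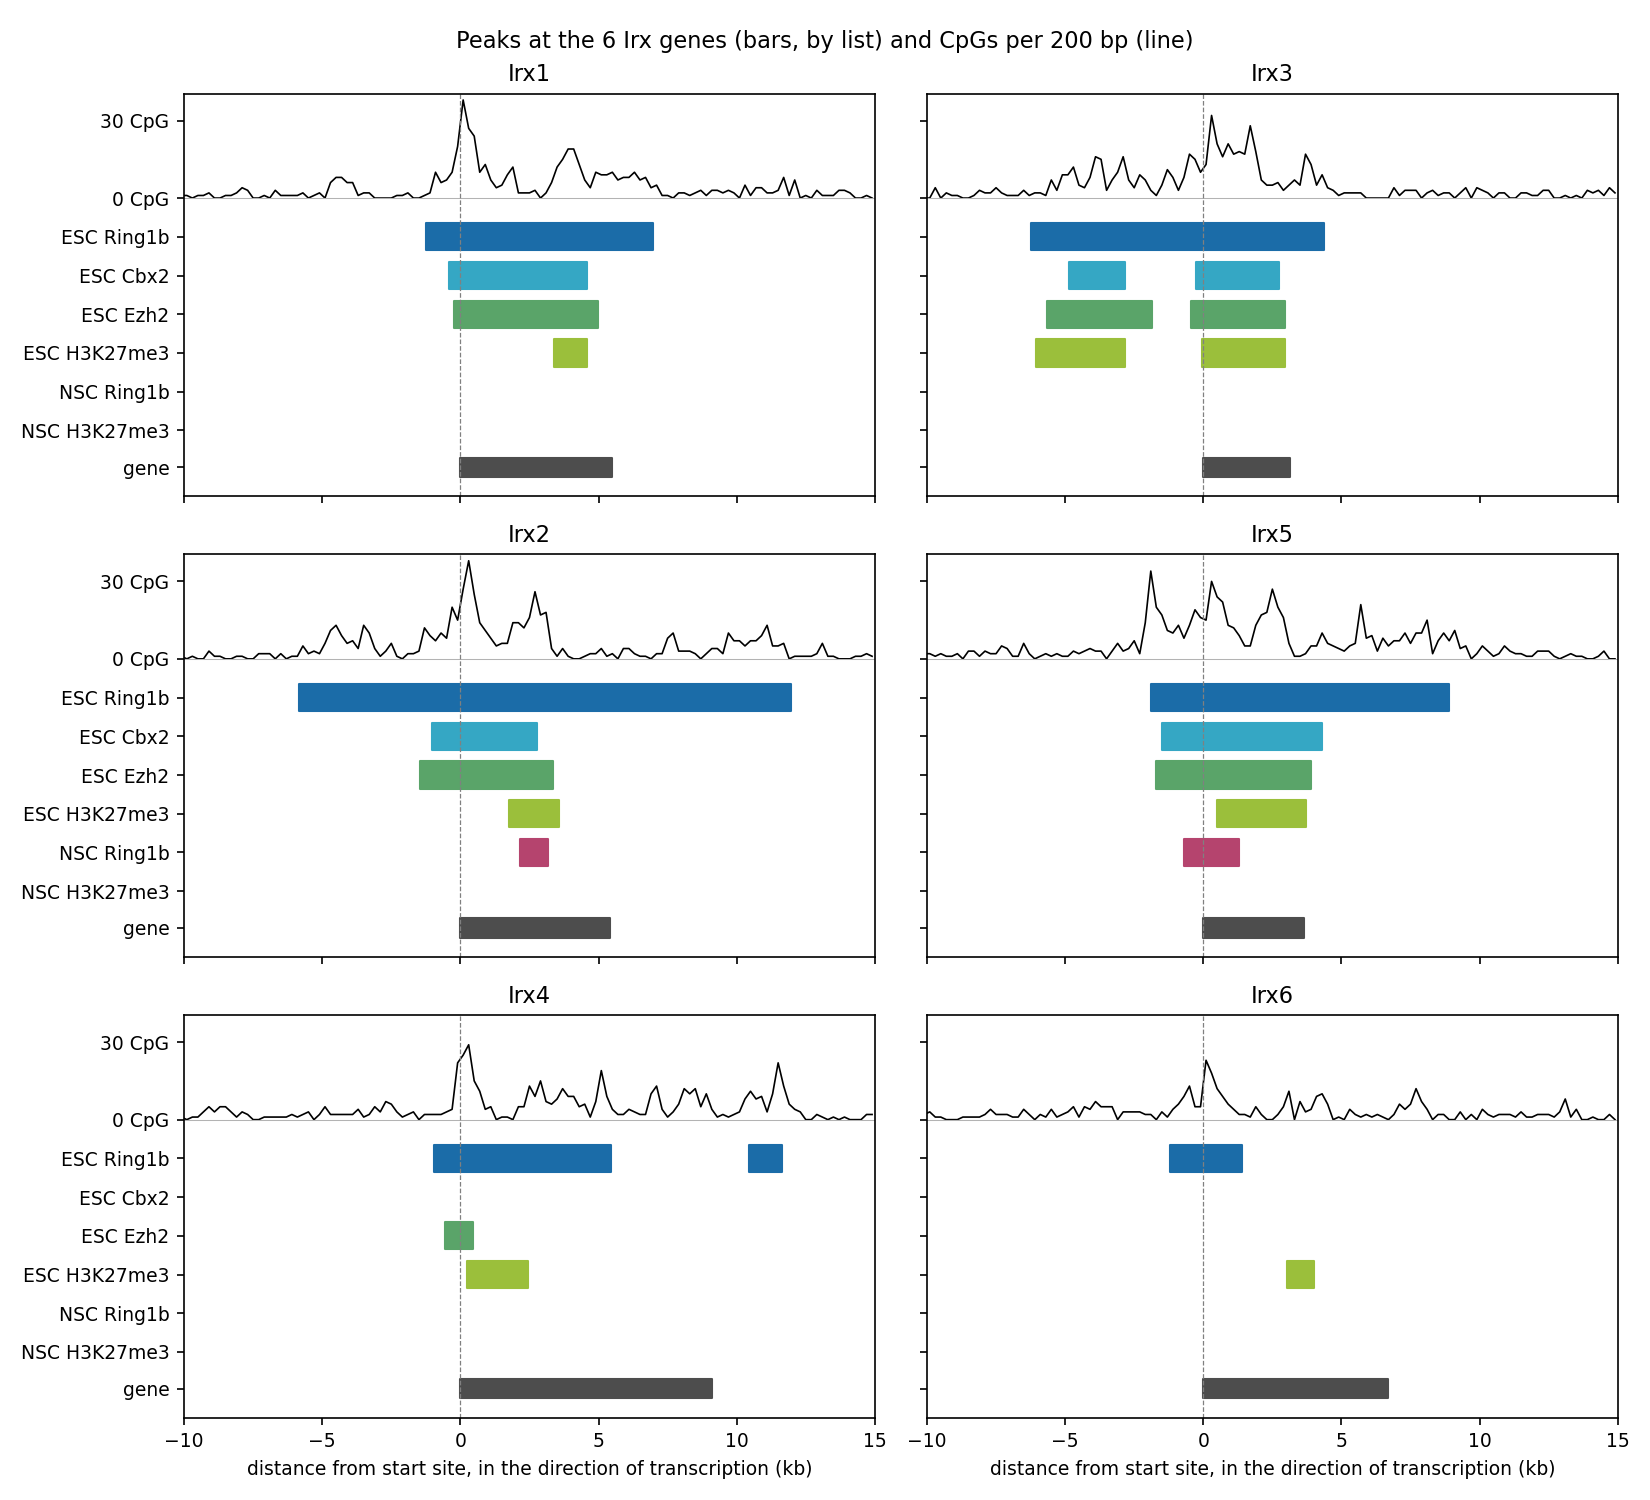
Peaks of each list (bars) at the 6 Irx genes, drawn to scale by distance from the TSS in kb in the direction of transcription, with the gene body below and the number of CpGs per 200 bp above; paralogs share a row. Ring1b in ESCs spans every TSS, Cbx2 and Ezh2 peaks are narrower and lie within it, H3K27me3 peaks lie mostly downstream of the TSS, and in NSCs only Irx2 and Irx5 keep a bar.

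Cbx2 and Ezh2 peaks in ESCs were found at Irx1, Irx2, Irx3 and Irx5 and were narrower than the Ring1b peak around them. The whole lists differed in the same direction, with median widths of 2200 bp for Ring1b, 1400 bp for Cbx2 and 1800 bp for Ezh2. Only Ring1b had the added EGS step, and its part in the widths was not tested. Cbx2 peaks held 4 of the 6 TSSs, against 1.15% of all protein-coding genes and 15.8% of the genes with their TSS in an ESC Ring1b peak. Ezh2 peaks held 5, against 2.56% and 34.5%. The same 4 and 5 genes had a peak of these proteins anywhere in the gene body plus 10 kb. For Cbx2 this held for 3.09% of all genes and 25.3% of those with Ring1b on the TSS, and for Ezh2 for 5.28% and 50.9%. At Irx5, Cbx2 covered 5800 bp and Ezh2 5600 bp, and each took in the whole gene. At Irx1 the values were 5000 bp and 5200 bp, and at Irx2 they were 3800 bp and 4800 bp.
At Irx3, both proteins had a pair of peaks. For Cbx2, a peak of 3000 bp lay over the TSS and body of Irx3 and a peak of 2000 bp lay 2848 to 4847 bp upstream. Ezh2 had 3400 bp over the gene and 3800 bp upstream, and H3K27me3 had 3000 bp and 3200 bp. The upstream peaks overlap D230002A01Rik, an annotated lincRNA that begins inside Irx3 on the opposite strand and runs from 94324314 to 94331438 on chromosome 8. Its own start site lay in peaks of all 4 ESC lists, so the peaks over Irx3 cannot be assigned to either gene. A single Ring1b peak bridged the gap between the peaks over Irx3 and those upstream.
Irx4 and Irx6 differed from the other members. Neither had a Cbx2 peak within 10 kb, and the nearest on the chromosome were 629 kb and 312 kb from their TSSs, at the neighbouring members of the clusters. Irx4 had an Ezh2 peak of 1000 bp, the smallest width in the list, across its TSS. Irx6 had no Ezh2 peak. In all, Cbx2, Ezh2 or H3K27me3 peaks covered 5400 bp at Irx1, 5000 bp at Irx2, 7600 bp at Irx3, 3000 bp at Irx4 and 6000 bp at Irx5, and 0 bp of these lay outside Ring1b. At Irx6 they covered 1000 bp, all of it outside the Ring1b peak.

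H3K27me3 peaks were present at all 6 genes in ESCs but mostly missed the TSS. A peak touched the gene body plus 10 kb at 9.97% of all protein-coding genes and at 71.3% of those with their TSS in an ESC Ring1b peak. Only the TSS of Irx3 was inside a peak, 47 bp from its edge, which makes 1 of 6. The count was 2 of 6 when any annotated transcript start was taken. The share was 4.31% over all protein-coding genes and 47% over the 1571 genes with their TSS in an ESC Ring1b peak. At the other members the nearest H3K27me3 peak lay downstream of the TSS, by 256 bp at Irx4, 506 bp at Irx5, 1756 bp at Irx2, 3013 bp at Irx6 and 3371 bp at Irx1. The median distance was 1130 bp over the 6 genes and 0 bp over the 1120 genes with their TSS in a Ring1b peak and an H3K27me3 peak within 10 kb of the gene body. Within 1 kb of the TSS, an H3K27me3 peak was found at 3 of 6 Irx genes and at 90.1% of those 1120 genes.
The marked stretches covered 6200 bp at Irx3, 3200 bp at Irx5, 2200 bp at Irx4, 1800 bp at Irx2, 1200 bp at Irx1 and 1000 bp at Irx6. The median was 1800 bp over all genes with such a peak, so Irx3, Irx5 and Irx4 lay above it and Irx1 and Irx6 below. At Irx1, Ezh2 covered 5200 bp and H3K27me3 only 1200 bp of them, at the 3′ part of the gene. At Irx4, Ezh2 and H3K27me3 peaks shared 200 bp. All 4 ESC lists together covered 4800 bp at Irx3, 3200 bp at Irx5, 1200 bp at Irx1 and 1000 bp at Irx2, and 0 bp at Irx4 and Irx6.

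In the ESC lists, Irx1, Irx2, Irx3 and Irx5 each had a wide Ring1b peak that overlapped peaks of Cbx2, Ezh2 and H3K27me3. At Irx4 the Ring1b peak overlapped Ezh2 and H3K27me3 without Cbx2, and at Irx6 the Ring1b peak overlapped no other list. By cluster, Ring1b peaks covered 33.6 kb of the 80 kb of windows around Irx1, Irx2 and Irx4 (42%) and 24 kb of the 73.5 kb around Irx3, Irx5 and Irx6 (32.7%). The other lists ran the other way, with 8.8 kb and 10.8 kb for Cbx2, 11 kb and 12.8 kb for Ezh2, and 5.2 kb and 10.4 kb for H3K27me3. The contrasts for Ring1b and H3K27me3 rested largely on single genes. Irx2 gave 17800 bp of the 33.6 kb for Ring1b, and Irx3 gave 6200 bp of the 10.4 kb for H3K27me3. Median widths of Ring1b peaks were 7300 bp in the chromosome 13 cluster (4 peaks) and 10600 bp in the chromosome 8 cluster (3 peaks), and those of H3K27me3 peaks were 1800 bp (3 peaks) and 3100 bp (4 peaks). For comparison, the median was 2200 bp over the whole ESC Ring1b list and 1800 bp over the whole ESC H3K27me3 list.

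**Figure D2:**
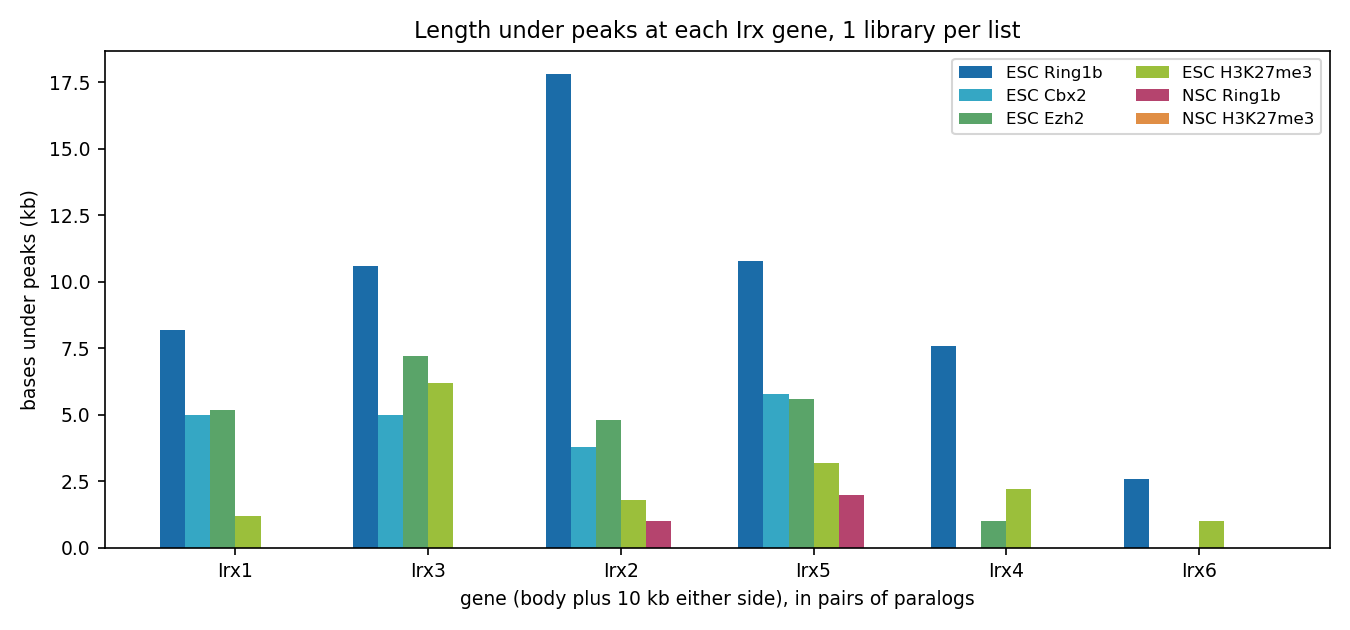
Length under peaks in kb (bars) within the gene body plus 10 kb of each Irx gene, by list, with paralogs side by side and 1 library per list. Ring1b in ESCs gives the tallest bar at every gene, from 17.8 kb at Irx2 to 2.6 kb at Irx6, and in NSCs bars are left only at Irx2 (1 kb) and Irx5 (2 kb).

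In NSCs, nearly all of these peaks were missing. Ring1b peaks covered 1 kb of the chromosome 13 windows, compared with 33.6 kb in ESCs (a ratio of 0.0298), and 2 kb of the chromosome 8 windows, compared with 24 kb (a ratio of 0.0833). H3K27me3 had no peak at any of the 6 genes, compared with 5.2 kb and 10.4 kb in ESCs. The NSC lists were smaller as a whole. Ring1b peaks covered 7.9 Mb in ESCs and 3.6 Mb in NSCs, and H3K27me3 peaks covered 4.91 Mb and 3.92 Mb. An NSC H3K27me3 peak was found on the TSS of 1.77% and within the gene body plus 10 kb of 4.7% of all protein-coding genes. Among those with their TSS in an ESC Ring1b peak, the shares were 19.8% and 32.4%. The lists also differed in composition. The median number of CpGs per 100 bp was 5.42 in ESCs and 1.9 in NSCs for Ring1b, and 4.94 and 1.71 for H3K27me3. The NSC H3K27me3 list held a peak on the TSS of Sox2, a gene expressed in neural stem cells. The part of these differences in the missing peaks was not tested. The nearest NSC H3K27me3 peak was 102 kb from the TSS of Irx5 and 1890 kb from that of Irx1.
The peak left at Irx5 was 2000 bp wide (chr8:94881001-94883000). It ran from 694 bp before to 1305 bp after the TSS, took in the first of 3 exon blocks and lay wholly within the ESC Ring1b peak. Irx5 was thus the 1 member of 6 with its TSS in an NSC Ring1b peak, against 1.74% of all protein-coding genes and 16.7% of genes with their TSS in an ESC Ring1b peak. The count is close to the latter share. Within the gene body plus 10 kb, 2 of 6 members had an NSC Ring1b peak, against 4.64% of all genes and 27.1% of those with Ring1b on the TSS in ESCs, which is close as well.
The peak left at Irx2, the paralog of Irx5, was 1000 bp wide (chr13:72768401-72769400), the smallest width in the list, and lay inside the gene, 2156 to 3155 bp after the TSS. All 1000 bp of it had been under both Ring1b and H3K27me3 in ESCs. At Irx5, 800 bp of the NSC peak had been under H3K27me3 in ESCs. Irx1, Irx3, Irx4 and Irx6 had neither an NSC Ring1b nor an NSC H3K27me3 peak within 10 kb. That is 4 of 6 genes, and the share was 57.6% among all genes with their TSS in an ESC Ring1b peak.
Set beside genes with the same ESC peaks, the 4 members with Ring1b, Cbx2 and Ezh2 on their TSS were 4 of 210 such genes. An NSC Ring1b peak touched the gene body plus 10 kb at 2 of these 4 (Irx2 and Irx5) and at 64.8% of the 210. An NSC H3K27me3 peak did so at 0 of the 4 and at 70% of the 210. On the TSS itself, NSC Ring1b was present at 1 of the 4 and at 51% of the 210, and NSC H3K27me3 at 0 of the 4 and at 54.3%. The combination seen at Irx2 and Irx5, an NSC Ring1b peak without H3K27me3, was found at 7.14% of the 210. Of these 210 genes, 80% also had their TSS in an ESC H3K27me3 peak, as had 1 of the 4 members. These shares describe single libraries, and the difference between the members and other genes was not tested.

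Between the genes of a cluster, outside the windows, the 6 lists held peaks at a single place. It lies 102 kb from the TSS of Irx5 and 212 kb from that of Irx6, and Irx5 is the nearest annotated gene start of any kind. In ESCs it carried a Ring1b peak of 2200 bp (chr8:94983601-94985800) and an H3K27me3 peak of 2000 bp, with no Cbx2 and no Ezh2 peak. In NSCs it kept an H3K27me3 peak of 1800 bp (chr8:94983401-94985200), of which 1600 bp fell in the ESC Ring1b peak, and had no Ring1b peak. This is the reverse of Irx2 and Irx5, where Ring1b was left and H3K27me3 was not. Of the 427 ESC Ring1b peaks more than 10 kb from any protein-coding TSS, 20.1% overlapped NSC H3K27me3, and 11.7% overlapped it without NSC Ring1b. On the chromosome 13 side no peak of any list lay between the windows of Irx1, Irx2 and Irx4.

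**Figure D3:**
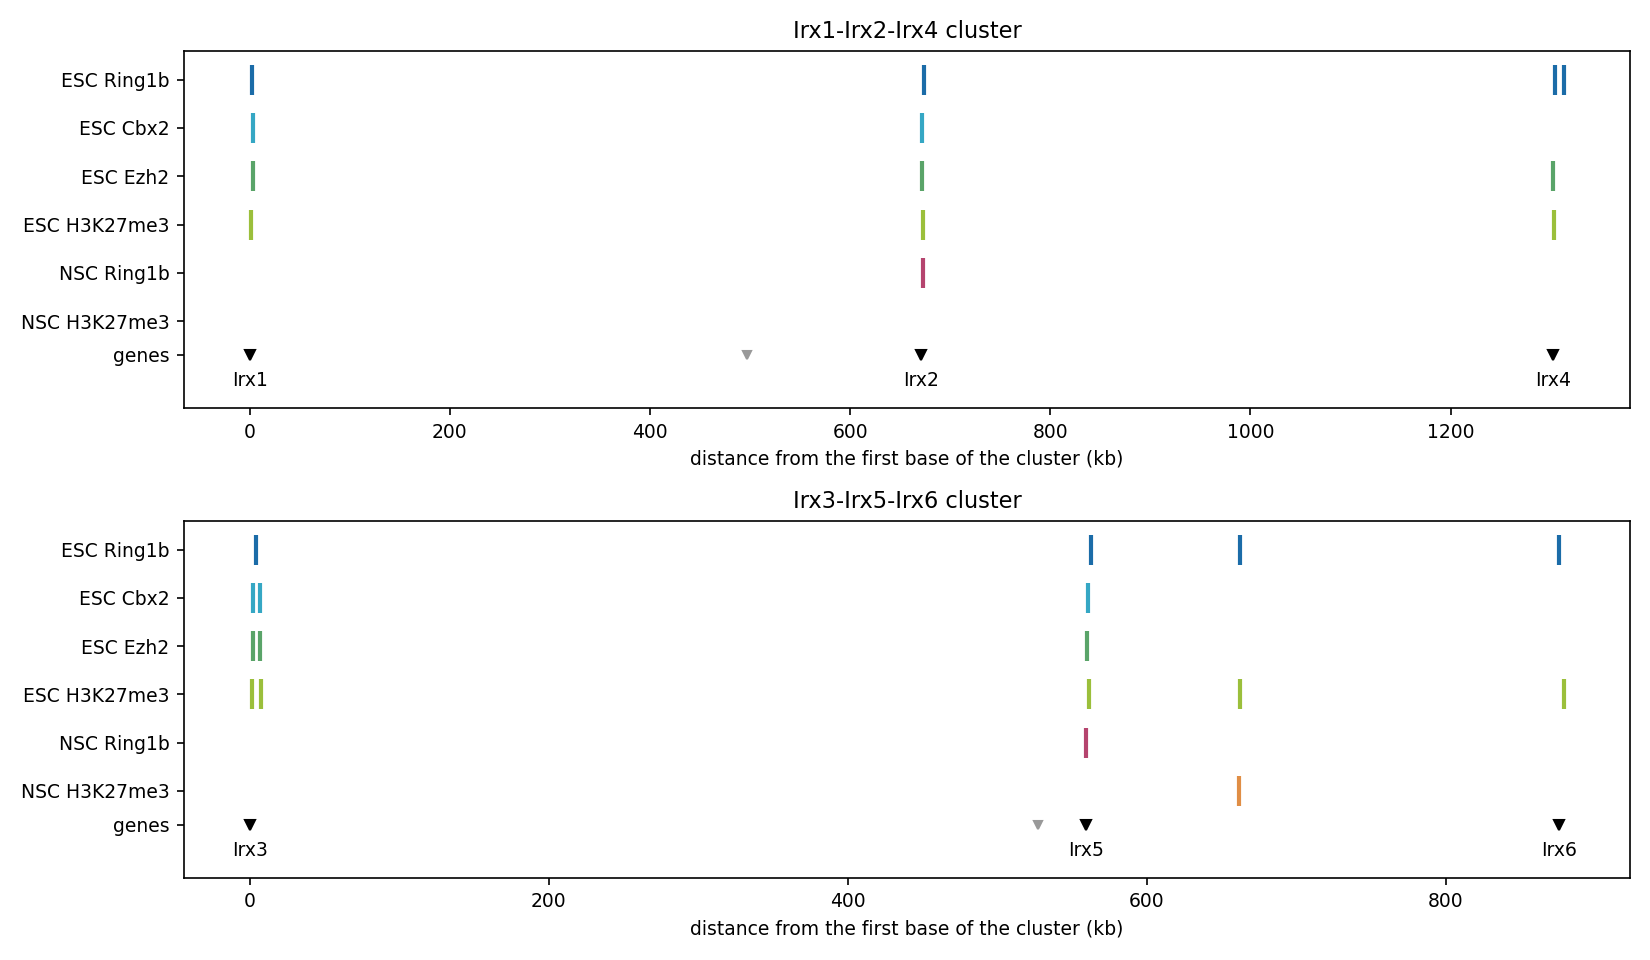
Position of each peak (ticks, not to width) along both clusters in kb from the first base of the leftmost Irx gene, with triangles for the Irx genes (black) and other protein-coding genes between them (grey). Ticks gather at the genes in every list except NSC H3K27me3, which has none at any Irx gene. The only place away from the genes is 102 kb from Irx5, with Ring1b and H3K27me3 in ESCs and H3K27me3 in NSCs.

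CpGs were denser under the peaks than around them. Within the windows, DNA outside ESC Ring1b peaks held from 0.487 (Irx2) to 1.47 (Irx5) CpGs per 100 bp. DNA under Ring1b but outside Cbx2 and Ezh2 held from 2.06 (Irx2) to 4.46 (Irx6). Under Ezh2 the density was 5.48 at Irx1, 5.67 at Irx3, 6.62 at Irx5, 7.15 at Irx2 and 8.8 at Irx4, and under Cbx2 it was 5.62 at Irx1, 6.47 at Irx5, 6.54 at Irx3 and 7.29 at Irx2. The Ezh2 peaks at these 5 genes and the Cbx2 peaks at 4 of them thus lay on denser CpGs than the rest of the Ring1b peak. Over the whole ESC lists the median was 5.42 for Ring1b, 5.72 for Ezh2 and only 2.4 for Cbx2. The density under Cbx2 at these genes therefore does not describe its whole list.
The stretches left under Ring1b in NSCs were among the densest, with 9 CpGs per 100 bp at Irx2 and 8.65 at Irx5. Over the whole NSC Ring1b list of 1389 peaks the median was 1.9, whereas the median of the ESC Ring1b list was 5.42. H3K27me3 peaks of ESCs lay on 7 CpGs per 100 bp at Irx1 and on only 2.4 at Irx6 and 3.23 at Irx4. The place between Irx5 and Irx6 held 5.45, with a ratio of observed to expected CpGs of 0.691, close to the medians of 5.42 and 0.642 over the ESC Ring1b list, although no gene start is annotated there.
The motif GAGAG, part of some Polycomb response elements of flies, was counted in the 250 bases upstream on both strands, overlaps included. Irx5 held 7 matches on the strand of the gene, Irx3 held 5 and Irx2 held 3, with 1 more on the other strand of Irx2. Irx1 had 1 match, Irx6 had 1 and 3 on the other strand, and Irx4 had 0. At least 1 match was present upstream of 55.2% of all protein-coding genes and of 62.3% of those with their TSS in an ESC Ring1b peak, so its presence in 5 of 6 members is a description only.

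**Figure D4:**
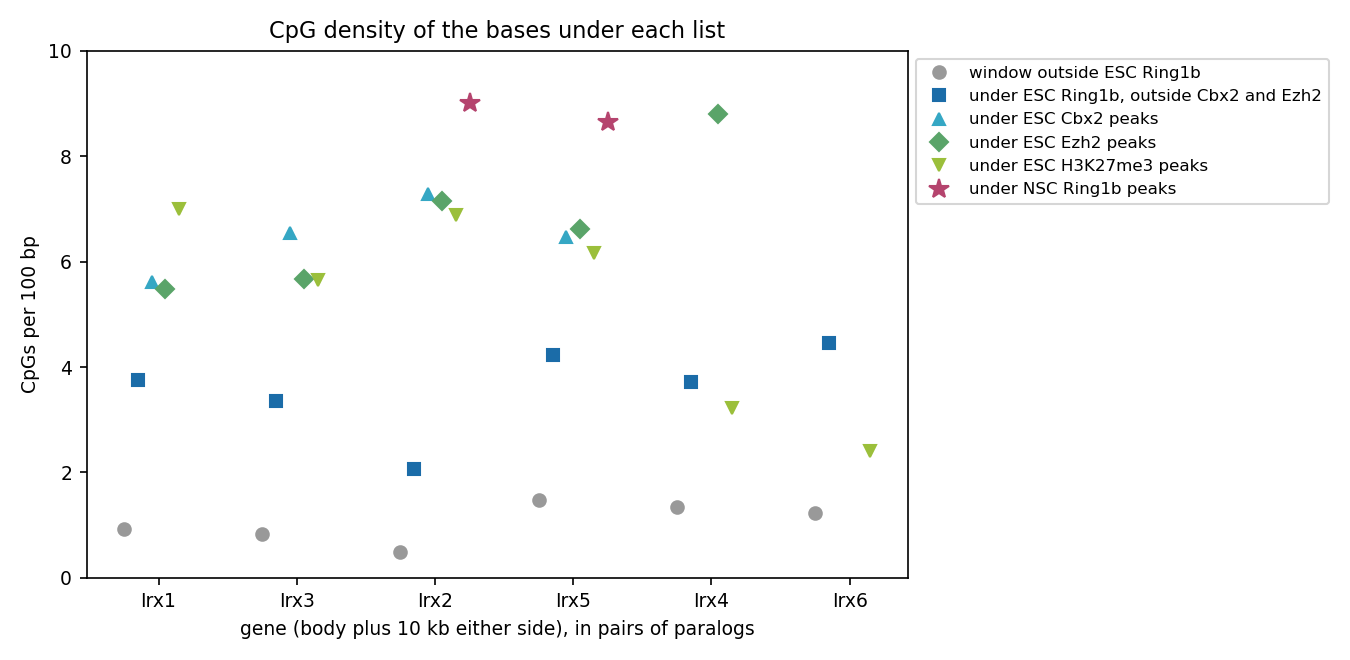
CpGs per 100 bp (points) of the bases under each kind of peak at each Irx gene, with paralogs side by side. Bases outside ESC Ring1b lie between 0.487 and 1.47, Cbx2 and Ezh2 peaks between 5.48 and 8.8, and the NSC Ring1b peaks at 9 (Irx2) and 8.65 (Irx5).

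The start sites of the genes around the clusters were mostly free of peaks, as were those of most protein-coding genes. Over all protein-coding genes, ESC Ring1b peaks held 7.03% of TSSs. Each other list held fewer, from 1.15% (ESC Cbx2) to 4.31% (ESC H3K27me3), so few peaks at the neighbours do not set them apart. The protein-coding neighbours were taken as those between the outermost Irx genes and the nearest 2 on either side, which gave Adamts16, 8030423J24Rik, Rpl9-ps4, Ndufs6 and Mrpl36 on chromosome 13 and Rpgrip1l, Fto, 4933436C20Rik, Gm3272 and Gm17310 on chromosome 8. Fto, whose introns hold enhancers of Irx3, had no peak on its TSS in any list. Of the 10 neighbours, only 4933436C20Rik had its TSS in a peak. Its TSS lies 1676 bp from that of Irx5 on the opposite strand and was in the same ESC Ring1b and Ezh2 peaks, so these peaks cannot be assigned to either gene.

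Other TALE homeobox genes and a list of neural tube patterning genes gave a frame for these counts. Among 12 further TALE genes, Ring1b peaks in ESCs held 4 TSSs, Ezh2 peaks 3, Cbx2 peaks 2 and H3K27me3 peaks 1. Meis2, a cofactor of Hox proteins, was in peaks of all 4 ESC lists, with a Ring1b peak of 17200 bp. Neither NSC list held a TSS of these 12 genes. Over all protein-coding genes the shares were 1.74% for NSC Ring1b and 1.77% for NSC H3K27me3, so 0 of 12 is close to them. Most of the 12 had no Ring1b peak on the TSS in ESCs either.
Among 10 patterning genes of the neural tube, ESC Ring1b peaks held 9 TSSs, H3K27me3 peaks 8, and Cbx2 and Ezh2 peaks 7 each. In NSCs, Ring1b peaks held 3 of them (Pax3, Nkx6-1 and Nkx6-2) and H3K27me3 peaks held 6 (the same genes with Pax7, Dbx1 and Nkx2-9). Nkx6-1, a ventral progenitor factor, had a Ring1b peak of 12400 bp in ESCs and 8800 bp in NSCs. Nkx2-2 and Olig2, which are ventral factors too, were in peaks of all 4 ESC lists and of neither NSC list.

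**Figure D5:**
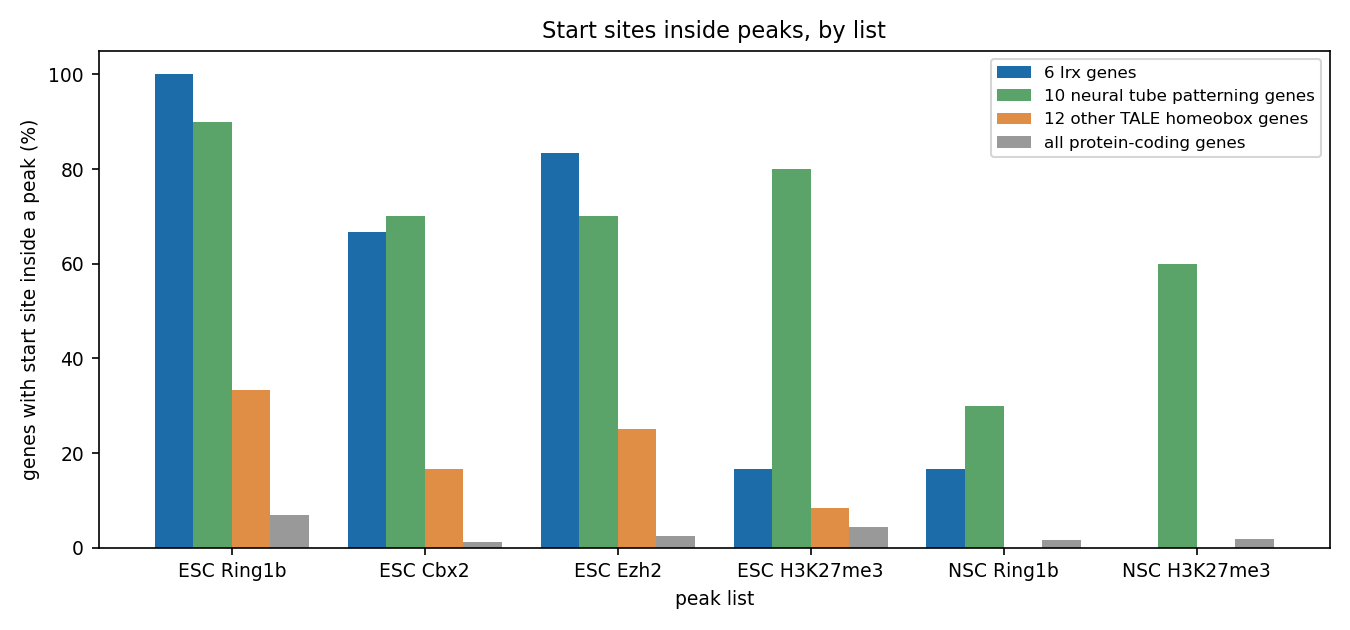
Percentage of genes with their TSS inside a peak (bars) in each list, for the 6 Irx genes, 10 neural tube patterning genes, 12 other TALE homeobox genes and all protein-coding genes. The Irx genes stand at 6, 4 and 5 of 6 in the ESC Ring1b, Cbx2 and Ezh2 lists and at 1 of 6 for H3K27me3, and at 1 and 0 of 6 in the NSC Ring1b and H3K27me3 lists.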

How the data were processed

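ChIP-seq was carried out in J1 ESCs and NSCs on chromatin sheared to an average of 250 bp, with 1 library per cell type and target. Samples were grouped by their titles. The authors deposited a start and an end for each peak, in mm9 coordinates. By the paper's methods, the authors mapped paired-end tags with Bowtie, scored sliding windows against the input under a negative binomial model tuned by eye, and joined enriched windows that lay close together. The tool list of the labels names BWA instead. Every edge in the 6 lists is a multiple of 200 bp and no peak is narrower than 1000 bp, which limits the resolution of the distances given. The 4 inputs were not analysed here. Depth is unknown, so no interval or floor is given.

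Genes came from the GENCODE annotation of mm9 (NCBIM37), whose chromosomes were as long as the peaks require. The TSS was the 5′ end of the gene, and peaks counted when they shared at least 1 bp with the gene body plus 10 kb. Python 3.11.15 and numpy 2.4.6 served for overlaps and CpGs, and coding sequences of the longest annotated form were aligned end to end in Biopython 1.88. The overlap functions were tested on simulated data. No test was run, since each group is a single library. The genes, lists and comparisons were chosen with earlier results of these data known. Named were the members, the neighbours within and 2 on either side of each cluster, list genes with their TSS in an NSC peak or in all 4 ESC lists, and the 3 genes with the most similar coverage to each member. Cell type markers were named as well, and D230002A01Rik was added after its overlap with Irx3 was seen.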

Additional observations from a re-analysis of the deposited data

How the results depend on the processing

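Of 48 alternative values, 44 lay within 1.5 times the reported value and 4 did not. The 44 include NSC H3K27me3 counts and ratios that were 0 in both settings, for which a limit of 1.5 times says little. They also include the ESC Ring1b count, which was already 6 of 6 and could not rise. The ESC Ezh2 count is among them too, although it fell from 5 to 4 without peaks under 2 kb. The gene lost was Irx4, whose Ezh2 peak is 1000 bp wide. The tally is therefore no measure of how firm the results are. The alternatives were windows of 5 kb and 20 kb, whole cluster spans, removal of peaks under 2 kb, joining of peaks up to 3 kb apart, full peak widths, any transcript start, and starts within 1 kb of a peak. The count of Irx genes with an ESC H3K27me3 peak at the TSS rose from 1 to 2 when any transcript start counted and to 3 when a peak within 1 kb counted. Without peaks under 2 kb, the Ring1b ratio of NSCs to ESCs in the chromosome 13 cluster fell from 0.0298 to 0, because the Irx2 peak is 1000 bp wide. Over the whole chromosome 8 span, the H3K27me3 ratio rose from 0 to 0.145, through the place between Irx5 and Irx6. A stricter threshold could not be applied, since the lists carry no score, and the unknown depth of each library limits every missing peak. No paired analysis was possible because each group holds 1 library and no test was run.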

Other observations

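The genes most like each member were those with the smallest mean absolute difference, over the 6 lists, in the percentage of the gene body plus 10 kb under peaks, out of 22343 genes compared. The points of such a profile share their libraries. For Irx1 they were Pax9 (2.22 percentage points), Sox9 (2.62) and Cdkn2c (2.88), and for Irx3 they were Egr3 (3), Dmrta2 (3.94) and 1110006G14Rik (4.16). For Irx2, En1 came nearest at 4.49, followed by Nr2f1 (6.73) and 1110006G14Rik (6.97). Irx5 lay closest to Pou3f3 at 3.97, and then to Nr2f1 (4.03) and Pax9 (4.3). Pou3f3, a neural POU gene, had an NSC Ring1b peak (6.94% of its window) and no NSC H3K27me3 peak. Nr2f1, Pax9 and the matches of Irx2 had 0% of their windows under NSC Ring1b. The NSC lists were part of the matching, so these values are not a separate result. Irx4 matched Plekhh3 (0.851), Esx1 (0.914) and Sox3 (1.02), and Irx6 matched 1110017D15Rik (0.122), Ghsr (0.126) and Tmem151b (0.192).

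Expression was not analysed here. Peaks at marker genes were looked up, but they cannot check the identity of the cells. None of the TSSs of Pou5f1, Nanog, Zfp42 and Esrrb was in a peak of the 6 lists. Most protein-coding TSSs were in no peak of a given list, with the highest share at 7.03% for ESC Ring1b. Nes had its TSS in ESC Ring1b and Ezh2 peaks and Pax6 in ESC Ring1b and H3K27me3 peaks, and neither was in an NSC peak. Fabp7 was in no peak. Sox2, which neural stem cells express, had its TSS in an NSC H3K27me3 peak of 1800 bp. Whether this peak reflects the cells or the calling cannot be told apart from the lists.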
